A study of Gallus gallus with 4 samples.

Results

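The 9 genes described here were grouped as genes of the absorptive cells of the small intestine, the enterocytes. Most of them serve nutrient uptake or the apical surface of these cells. The group holds the transporters SLC5A1, SLC15A1, SLC7A9 and SLC9A2, the surface peptidases ANPEP and MEP1A and the actin-bundling protein VIL1. The cadherin CDH17 and the fucosyltransferase FUT9 complete the 9 genes. All were measured in chicken liver and are 9 of the 5382 genes that could be named on the array. They were chosen by their difference between group 1 and group 2 on these same arrays, so those differences are given as a description, with no test. All 22 probes that carry the RefSeq accession of these genes were taken, whatever their values. The 4 samples were livers of coloured broilers 35 days old, each hybridised to its own one-colour Agilent array, with 2 arrays in group 1 and 2 in group 2. Per the labels, group 1 was the high feed efficiency (FE) group and also the high residual feed intake (RFI) group, and group 2, the study's control, was low for both. Because a high residual feed intake ordinarily means a low feed efficiency, the groups are called by their numbers. All birds had individual cages, feed and water without restriction, starter feed up to week 4 and finisher feed after it, in a feeding trial of 35 days. The design text gives 4 to 5 birds killed per group at 5 weeks, with their RNA pooled and the pool split in duplicate. The labels name females only for both group 1 arrays and for group 2 replicate 1, and 1 male and 1 female for group 2 replicate 2. The replicates may therefore be technical, and the spread between them may leave out the spread between birds.

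An enterocyte carries on its apical side a brush border, a dense carpet of microvilli held up by actin bundles. Peptidases and sugar hydrolases anchored in that membrane finish digestion, and transporters beside them carry the released sugars, amino acids and small peptides into the cell, many of them driven by sodium or protons. Several of these proteins also serve outside the gut, in kidney tubules and, for ANPEP and VIL1, in liver, where they are found on bile canaliculi and in bile ducts.

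Each value below is a level on the log2 scale: the log2 of the processed intensity minus the 75th percentile of that array, so 0 is the signal at that percentile. Levels of different probes are not compared, since probes differ in how brightly they report. The percentile was 978.07 and 1449.57 intensity units on the group 1 arrays, and 1170.03 and 1277.68 on the group 2 arrays. Between 78.2% and 80.2% of probes were well above background on the group 1 arrays, and between 72.3% and 74.9% on the group 2 arrays. Probes were kept where at least 1 group had both of its arrays well above background. Over kept probes the difference between replicates had an SD of 0.42 within group 1 and 0.79 within group 2. The array labelled group 2 replicate 1 stood apart in its sex-linked genes: the 8 probes of HINTW, a gene of the female-specific W chromosome, had a median log2 difference from the group 1 mean of -9.58 there, against -0.29 on replicate 2, and 416 probes of Z-linked genes had a median 0.50 above the other arrays on replicate 1 and -0.16 on replicate 2. This goes against the label of females only on replicate 1, and also against a single pool split over the 2 group 2 arrays. Each gene is therefore also set against each group 2 array alone. The tissue itself showed its own genes on every array. Of 19 hepatocyte markers, 13 were measured (CPS1 and RBP4 were too dim to be kept), none passed the test in either direction, and the summed level of the measured markers was 1618 to 2213 times the 75th percentile on the group 1 arrays and 1709 to 1997 times on the group 2 arrays. Their median difference was 0.05, with 8 of the 13 above 0. VTN, TF and APOB were named after their values were seen. VTN was lowest at -1.41, with other kept probes at -1.36 and -1.27. Other kept probes of the list ran from -2.36 (TF) to 1.27 (APOB).

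SLC5A1 (NM_001293240) encodes the sodium-glucose cotransporter of the brush border. Its probe 1 read -1.82 and -1.57 on the group 1 arrays, against -4.87 and -3.84 on the group 2 arrays, and was well above background on all 4. Both group 1 arrays lay above both group 2 arrays, with a difference of 2.66 (6.31-fold). Probe 2 read -1.28 and -1.34 in group 1 and -5.80 and -5.95 in group 2. That difference was 4.57 (23.7-fold), and in group 2 the probe was well above background on replicate 1 only. Probe 3 read -4.95 and -4.99 in group 1 and -7.93 and -7.06 in group 2, where it was on neither array well above background, so that group 1 was at least 1.68-fold higher. Such "at least" values set the group 1 mean against the lowest signal that was well above background on each group 2 array, and are lower bounds. All 3 probes of the glucose transporter thus separated the groups in the same direction. As the samples are bulk tissue, fewer cells of a type and less RNA per cell cannot be told apart in any of these differences.

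SLC15A1 (NM_204365), the proton-driven carrier of small peptides from digested protein, had a pair of probes that disagreed. Probe 2 read -0.52 and -0.67 in group 1, against -7.25 and -7.73 in group 2, where neither array was well above background. Group 1 was at least 34.8-fold higher on that probe, with a measured difference of 6.89. Probe 1 read -2.74 and -2.90 in group 1 and -2.43 and -3.73 in group 2, all well above background. Its groups overlapped and its difference was 0.25: 0.90 against group 2 replicate 2, but -0.39 against replicate 1. The same accession therefore gave non-overlapping groups on one probe and overlapping groups on the other. Where in the transcript each probe lies is not given in the sources used here.

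SLC7A9 (NM_001199133) is the light subunit of the exchanger that takes up cystine and dibasic amino acids, in mammals best known from gut and kidney. Its probe 1 read -1.37 and -1.51 in group 1 and -5.38 and -5.58 in group 2, a difference of 4.04 (16.4-fold), with group 2 well above background on replicate 1 only. The other probe of this gene was well above background on a single array, group 1 replicate 2, and was not kept. It read -5.60 and -5.00 in group 1, against -7.82 and -7.49 in group 2. SLC9A2 (NM_001285935) exchanges sodium for protons across the apical membrane. Probe 1 read -2.09 and -2.41 in group 1, against -8.22 and -7.81 in group 2, where it was not well above background, so group 1 was at least 11.04-fold higher. Probe 2 read -5.29 and -4.67 in group 1 and -8.13 and -7.76 in group 2, again not well above background in group 2, and there the bound was at least 1.66-fold. Both probes of SLC9A2 and probe 1 of SLC7A9 kept their group 1 arrays above their group 2 arrays. The SLC7A9 probe that was not kept is too dim to be counted with them.

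ANPEP (NM_204861) encodes aminopeptidase N, which trims amino acids from the ends of peptides at the cell surface. It was the member with the most probes, 6, and all 6 were well above background on all 4 arrays. Probe 1 read 7.02 and 6.80 in group 1, against 6.45 and 6.64 in group 2. The groups did not overlap, but the difference was 0.36 (1.29-fold). Probes 4, 5 and 6 read between -2.73 and -1.86 over the group 1 arrays and between -4.58 and -2.63 over the group 2 arrays, with differences of 1.55, 1.29 and 1.53. Each of these 3 had its group 1 arrays above its group 2 arrays. Probe 2 ran the other way: -0.43 and 0.56 in group 1 against 1.27 and 0.59 in group 2, a difference of -0.87 with no overlap. Probe 3 read -2.25 and -1.88 in group 1 and -1.01 and -2.02 in group 2, overlapping, with a difference of -0.55. Of the 6 probes of ANPEP, 4 were thus higher in group 1, 1 was lower and 1 overlapped, and no single fold change describes the gene.

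MEP1A (NM_001277721), the alpha subunit of the metalloprotease meprin, read -0.12 and 0.01 on probe 1 in group 1, against -6.49 and -4.18 in group 2. The difference was 5.28 (38.8-fold), and in group 2 only replicate 2 was well above background. Against replicate 2 alone it was 4.12, and against replicate 1 alone 6.43, so the group 2 arrays differed from each other by 2.30, with replicate 1 not well above background. Probe 2 read -5.41 and -5.49 in group 1 and -6.80 and -6.17 in group 2, where it was not well above background, and group 1 was at least 1.20-fold higher. Both probes of the meprin subunit were higher on both group 1 arrays.

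**Figure D1:**
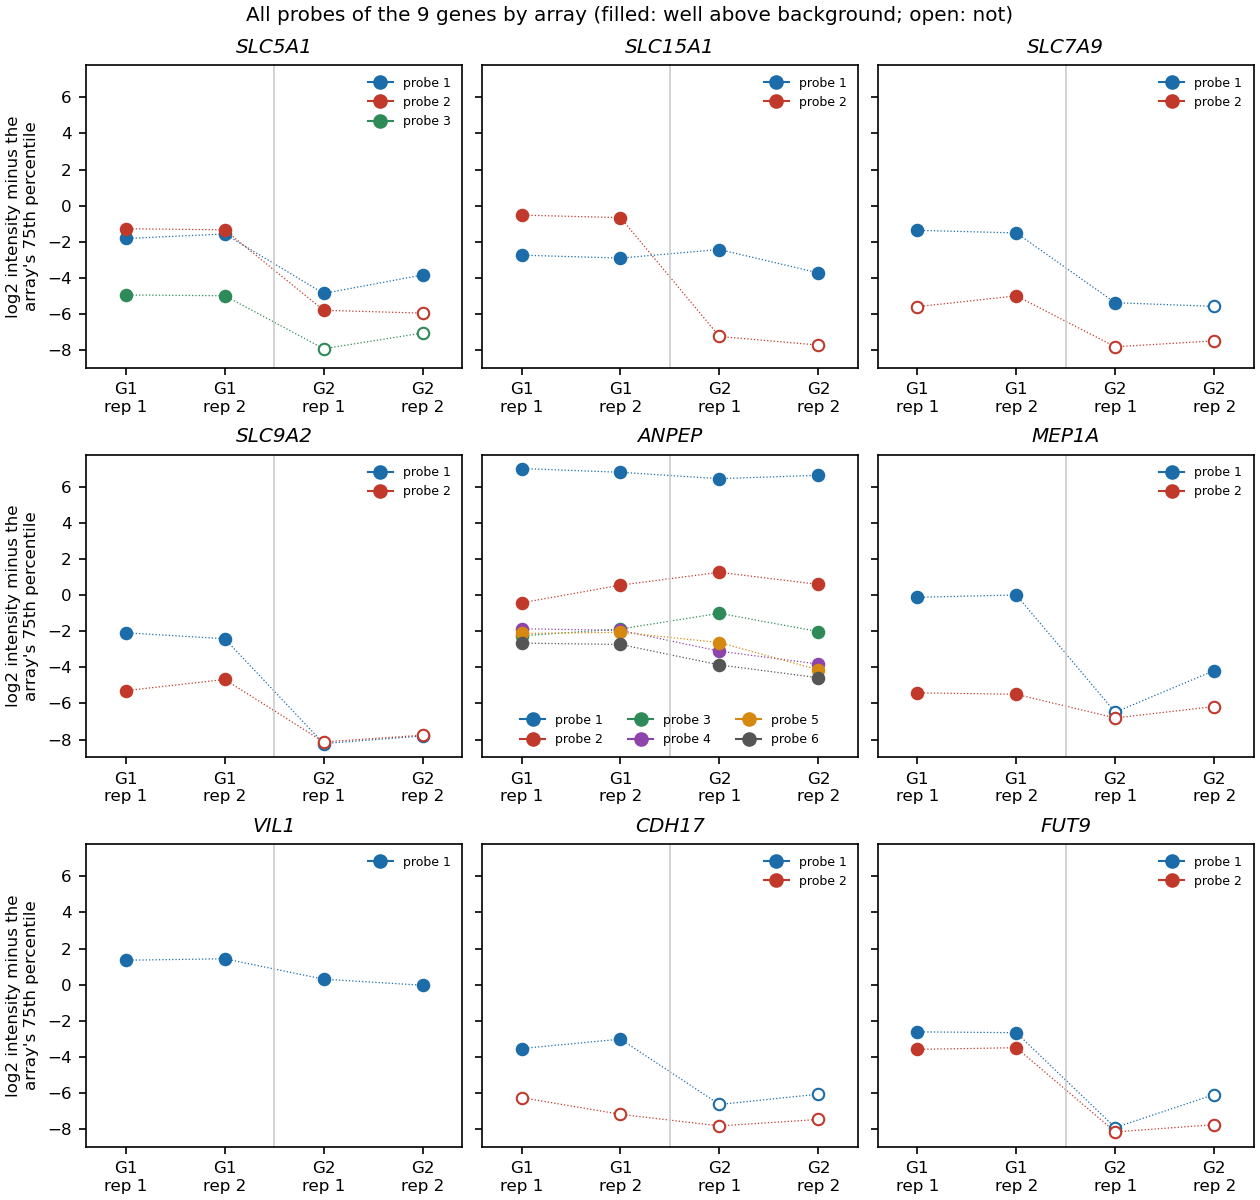
Level of every probe of the 9 genes on each array, as the log2 level relative to that array's 75th percentile, with group 1 (G1) left of group 2 (G2) and a dotted line joining the points of a probe. Filled points were well above background and open points were not: SLC9A2 and FUT9 are open on both group 2 arrays, while the 6 ANPEP probes and VIL1 are filled on all 4 arrays.

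VIL1 (NM_205442) encodes villin, which bundles the actin filaments of microvilli. Its only probe read 1.35 and 1.43 in group 1, against 0.30 and -0.04 in group 2, well above background on all 4 arrays. The difference of 1.26 (2.39-fold) was larger than the gap between the replicates of either group. CDH17 (NM_001199495) is a cadherin of the side membranes of gut epithelial cells. Its probe 1 read -3.54 and -3.02 in group 1 and -6.64 and -6.07 in group 2, where neither array was well above background, so group 1 was at least 5.41-fold higher. The second CDH17 probe was not well above background on any array and gives no comparison. FUT9 (NM_001079502) adds fucose to surface glycans and in mammals makes the Lewis x structure. Its probe 1 read -2.62 and -2.66 in group 1, against -7.92 and -6.09 in group 2. Its probe 2 read -3.59 and -3.49 in group 1, against -8.16 and -7.76 in group 2. Neither probe was well above background in group 2, and group 1 was at least 8.44-fold higher on probe 1 and at least 4.52-fold on probe 2. For the structural gene the level in group 2 was lower but measured, while CDH17 and FUT9 had only an upper limit there.

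Of the 22 probes, 20 passed the filter on dim signal and 2 did not, 1 each of SLC7A9 and CDH17. Of the 20, 9 were well above background on all 4 arrays, 3 on both group 1 arrays and a single group 2 array, and 8 on both group 1 arrays and neither group 2 array. The last 11 thus passed only through group 1. Over all 43603 probes, 3.39% were well above background on both group 1 arrays and neither group 2 array, and 0.319% the reverse. Among the 20 kept probes, both group 1 arrays lay above both group 2 arrays on 17, below them on 1 (ANPEP probe 2) and overlapped on 2 (SLC15A1 probe 1 and ANPEP probe 3). Over all kept probes the shares were 40.9% above and 26.4% below. Group 1 exceeded group 2 by more than the gap between the replicates of either group on 16 of the 20, beside 32.9% of all kept probes with a value on every array. These counts follow from how the genes were picked and are not evidence about them. With the brightest kept probe of each gene, the median difference over the 9 genes was 3.07, with a range from 0.25 (SLC15A1) to 5.76 (SLC9A2), beside a median of 0.14 over all 4872 genes with a kept probe. The values of SLC9A2, CDH17 and FUT9 in it are differences to probes not well above background in group 2, and with these genes at their lower bounds the median was 2.66. With the median over all kept probes of each gene instead, the gene values were 4.39 for FUT9, 4.36 for SLC9A2, 4.04 for SLC7A9, 3.57 for SLC15A1, 3.16 for MEP1A, 3.07 for CDH17, 2.66 for SLC5A1, 1.26 for VIL1 and 0.83 for ANPEP. Except for VIL1 and ANPEP, these medians include probes with only an upper limit on 1 or both group 2 arrays, so the order of the higher ones is not known. SLC15A1 and ANPEP stand there for probes that disagree. With a background correction by normexp, which adds an offset of 50 before the log, and quantile normalization, the 20 differences kept their signs but shrank to between -0.85 and 3.57, against -0.87 and 6.89 before, and the median of the brightest probes was 1.54.

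**Figure D2:**
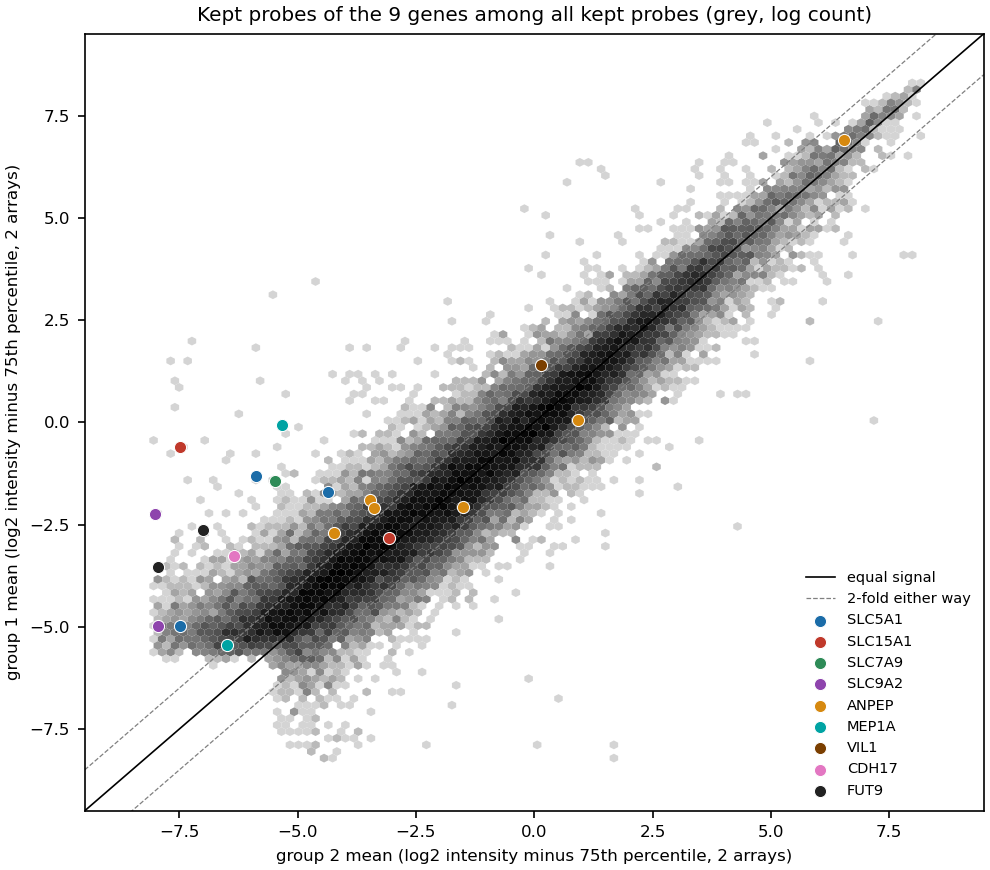
Group 1 mean (vertical axis) against group 2 mean (horizontal axis) of each kept probe, both as log2 levels relative to the 75th percentile of each array, with all kept probes in grey and the 20 kept probes of the 9 genes in colour. The bright ANPEP probe sits near the line of equal signal, while most probes of the 4 transporters, MEP1A, CDH17 and FUT9 lie at the dim end of group 2 and well above the line.

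The 9 probes well above background on all 4 arrays can be ordered by values that are not bounds. This order leaves out the probes dim in group 2, among them those with the largest differences. Within the 9, SLC5A1 probe 1 had the highest difference, 2.66. The next were ANPEP probes 4, 6 and 5 at 1.55, 1.53 and 1.29 and VIL1 at 1.26. Those 4 values lay closer together than the group 2 replicates of the ANPEP probes lay to each other. ANPEP probe 1 at 0.36 and SLC15A1 probe 1 at 0.25 came after them, and ANPEP probes 3 and 2 were last at -0.55 and -0.87. Without the group 2 array whose sex-linked genes went against its label, that is against replicate 2 alone, the differences were 2.15 for SLC5A1 probe 1, 1.43 for VIL1, 7.13 for SLC15A1 probe 2, 5.56 for SLC9A2 probe 1 and 2.79 for CDH17 probe 1. Against replicate 1 alone the same probes gave 3.17, 1.09, 6.65, 5.97 and 3.36. Each of these 5 was positive against either array, but for SLC15A1 probe 2, SLC9A2 probe 1 and CDH17 probe 1 the group 2 level was not well above background on either, so their sizes are not measured exactly. SLC15A1 probe 1 was the only kept probe whose sign differed between the group 2 arrays. The gap between replicates ran from -0.32 to 0.98 in group 1 and from -1.52 to 2.30 in group 2 (replicate 2 minus replicate 1), a wider range in group 2.

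**Figure D3:**
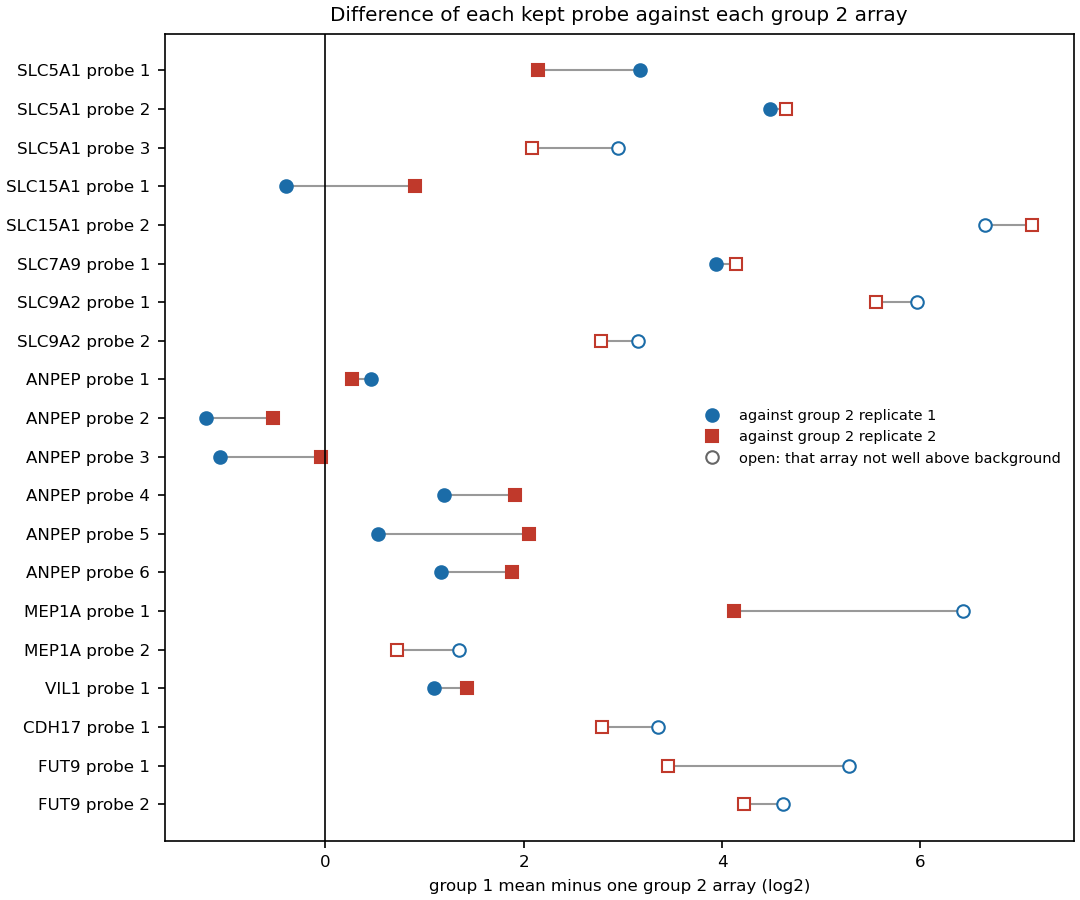
Mean of the group 1 arrays minus each group 2 array, on the log2 scale, for the 20 kept probes, with open symbols where that group 2 array was not well above background and the probe thus had only an upper limit there. SLC15A1 probe 1 lies on both sides of 0, and MEP1A probe 1 has the longest bar, between 4.12 and 6.43.

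Other genes of the gut epithelium were then taken from lists of known genes and, unlike the 9, tested. A gene stood by its brightest kept probe and was called when its adjusted p from limma, over all 33868 probes tested, was under 0.05. Over all 4872 genes, 280 were called higher in group 1 (5.75%) and 191 lower (3.92%). Over single probes the shares were 7.40% higher and 3.82% lower. Of the 71 genes measured in 8 lists of gut epithelium genes, 18 were called higher (25.4%) and none lower, with a median difference of 0.49. At an unadjusted p under 0.05 the counts were 28 higher and 5 lower, beside 930 higher (19.1%) and 609 lower (12.5%) of all genes. Most of the 18 called gut genes were kept only through group 1, so at least 1 of their group 2 values was not well above background. With only probes well above background on all 4 arrays, 8 gut genes were called higher and 1 lower. The median of the gut genes was then 0.21, and 272 genes were called higher and 229 lower of all 4633 tested. The number of gut genes left in that setting was not counted, so no share is given for them. The lists were chosen with results of these arrays known, and they hold many genes that liver also expresses. The calls did not hold when either group 1 array was left out, a fit whose replicate spread came from the group 2 arrays alone. The median difference of the gut genes was then 0.39 without group 1 replicate 1 and 0.57 without group 1 replicate 2. It was 0.48 without group 2 replicate 1 and 0.61 without group 2 replicate 2.

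Among peptidases and hydrolases of the brush border, 1 of 4 measured genes was called higher and none lower. This was ACE, a dipeptide-releasing peptidase, which read -1.02 and -1.20 in group 1, against -4.82 and -3.59 in group 2 (difference 3.10 ± 0.45 SE, adjusted p = 0.0322). MME, ALPL and DPP4, other surface enzymes, were not called at 0.70, 0.04 and -0.20. Of 6 apical transporters 1 was called higher, the phosphate carrier SLC34A2 (1.85, adjusted p = 0.0334), which was well above background on 1 group 2 array only and whose other probes gave -3.03 and -0.05. SLC16A1, ABCB1 and SLC11A2, carriers of lactate, drugs and iron, were not called at 0.51, 0.35 and 0.02. CFTR, SLC26A3 and SLC9A3 were on the array but too dim to be kept. None of 6 basolateral transporters and pumps was called in either direction, ATP1B1 standing at 0.85 (adjusted p = 0.0663) and the iron exporter SLC40A1 at 0.06. Of these 6, 4 lay above 0. The 2 below it, named after their values were seen, were SLC2A2 at -2.10 (adjusted p = 0.0507) and SLC51A at -1.12 (adjusted p = 0.0719). Both had their group 1 arrays below their group 2 arrays. None of 6 genes of microvillus structure was called either, the microvillus scaffold SLC9A3R1 standing at 1.10 (adjusted p = 0.0688). The median differences of these lists were 0.37 for the enzymes, 0.44 for the apical transporters, 0.17 for the basolateral ones and 0.32 for microvillus structure, beside 0.14 over all genes.

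Of 12 genes of lipid and vitamin uptake, 2 were called higher and none lower. RBP2, the retinol-binding protein of enterocytes, read 2.03 and 1.82 in group 1, against -7.04 and -7.45 in group 2, where it was not well above background (at least 199.5-fold higher in group 1, adjusted p = 0.00618). FABP2, the intestinal fatty acid-binding protein, read 0.90 and 0.83 in group 1, against -7.10 and -7.75 in group 2, also not well above background (at least 95.7-fold, adjusted p = 0.00692). The other 10 genes of that list were not called, among them FABP1, the liver-type fatty acid-binding protein, and the apolipoproteins APOA1 and APOA4, at 0.13, 0.12 and 0.07, and the list's median was 0.13. Of 13 transcription factors of gut and liver fate, 3 were called higher and none lower. CDX2, which drives intestinal identity in mammals, read -0.79 and -0.68 in group 1, against -8.07 and -7.21 in group 2, where it was not well above background (at least 31.6-fold, adjusted p = 0.0144). Its relative CDX4 was at least 1.49-fold higher (adjusted p = 0.0299) and GATA4 differed by 0.99 (adjusted p = 0.0484). PROX1, GATA6 and NR1H4, factors that liver also uses, were not called at 0.81, -0.32 and -0.87. Of 12 genes of adhesion and junctions, 3 were called higher and none lower: CDH2, CLDN3 and TSPAN1, at 1.70, 1.46 and 1.10. CTNNB1, CDH1 and CLDN1, general epithelial junction genes, stood at 0.13, -0.38 and -0.58 and were not called.

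Markers of the other cells of the gut lining were tested in the same way. Of 12 measured genes of goblet, endocrine and stem cells, 8 were called higher and none lower, with a median of 1.97, or 1.33 with genes not well above background in group 2 at their lower bounds. The hormone gene GIP differed by 4.88 (adjusted p = 0.0158, 1 group 2 array well above background). GUCA2B, the guanylin-family peptide uroguanylin, differed by 4.35 (adjusted p = 0.0212). NTS, encoding neurotensin, was at least 4.30-fold higher (adjusted p = 0.0212), and ATOH1, the factor of secretory cell fate, at least 7.44-fold (adjusted p = 0.0196). TPH1, VIP and CCK were not called, with measured differences of 1.95, 0.91 and 0.64, and the other kept probe of VIP gave 3.08. The summed level of this list was 15.7 to 17.2 times the 75th percentile on the group 1 arrays and 3.58 to 4.29 times on the group 2 arrays. AXIN2, the brightest gene of the list and named after its values were seen, weighed most in that sum. It read 3.63 and 3.49 in group 1 and 1.39 and 1.77 in group 2, so the sum says little about the other genes. Among 18 measured relatives of the 9 genes by family, 4 were called higher and 1 lower. The cadherins CDH11 and CDH2 differed by 2.66 and 1.70 and the villin relatives GSN and SCIN by 1.48 and 1.44, while SLC7A2, a carrier of basic amino acids found in liver, was lower at -1.89 (adjusted p = 0.0295). SLC9A8 and SLC7A5 were not called at 0.28 and -0.23, though the 3 other kept probes of SLC7A5 gave 0.78 to 1.11.

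**Figure D4:**
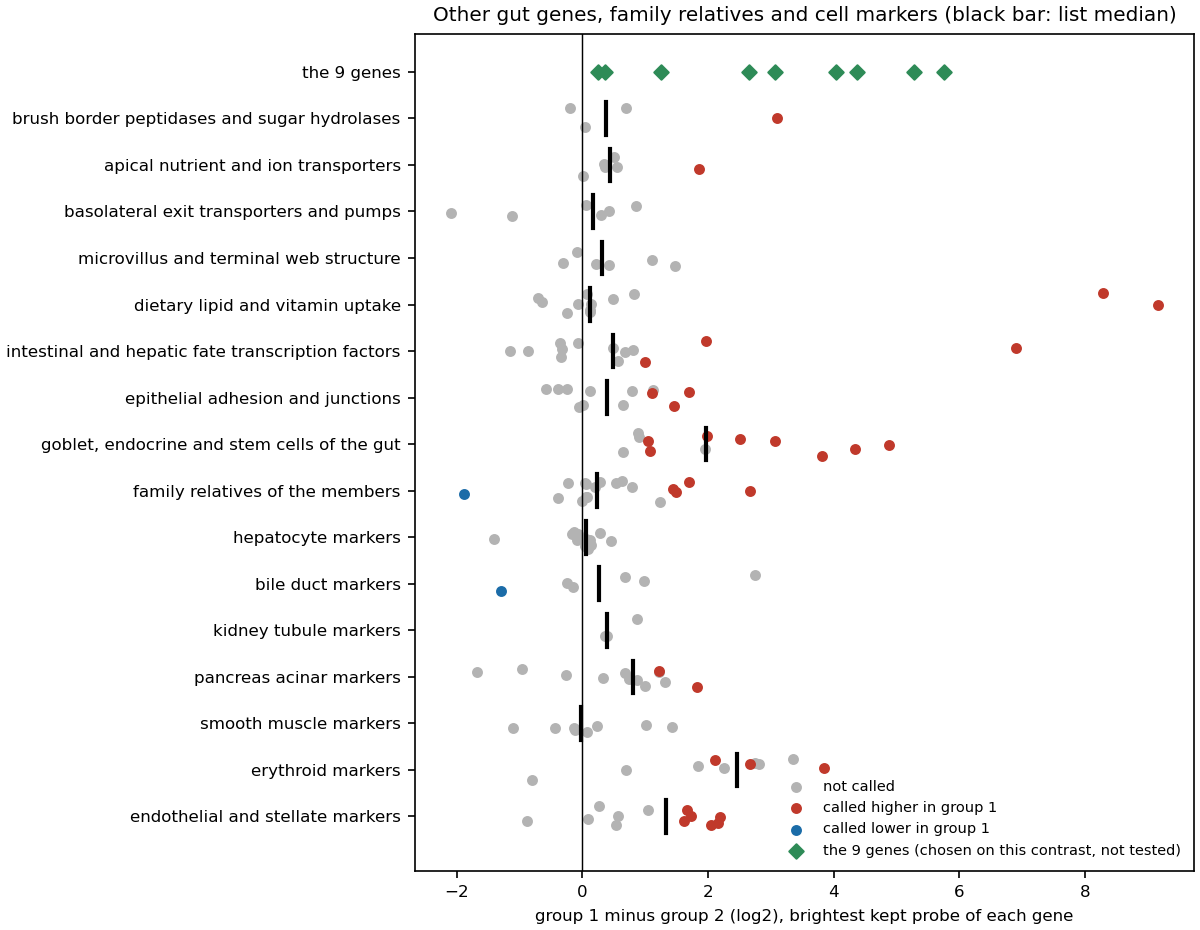
Difference between group 1 and group 2 on the log2 scale for each measured gene of 16 lists, with the list median as a black bar and the 9 genes, untested, in the top row. RBP2 and FABP2, not well above background in group 2, are plotted farthest right, 8 of the 12 goblet, endocrine and stem cell genes are called higher, and no hepatocyte marker is called.

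Markers of further tissues and cells were counted beside these. Of 10 measured erythroid markers, 3 were called higher and none lower, with a median of 2.46, and their summed level was 324 to 391 times the 75th percentile in group 1 and 41.9 to 146 times in group 2. They were RHAG and SLC4A1, proteins of the red cell membrane, and the globin HBBR, which differed by 3.85, 2.11 and 2.67. RHAG was well above background on 1 group 2 array only, so its difference is not measured exactly. Of the 10 markers, 9 lay above 0. The globin HBZ, named after its values were seen, lay below it at -0.81 and was not called. The globins HBAD, HBBA and HBA1 were not called at 2.80, 2.25 and 1.84. Of 12 endothelial and stellate cell markers, 6 were called higher and none lower, with a median of 1.34 and a summed level of 32.0 to 35.9 times in group 1 against 9.27 to 11.4 times in group 2. All 6 encode extracellular matrix proteins: the collagens COL1A2, COL5A1, COL3A1 and COL6A1, at 2.19, 2.16, 2.06 and 1.74, and the proteoglycans DCN and LUM, named after their values were seen, at 1.66 and 1.62. The endothelial genes ENG, CDH5 and KDR were not called at 1.05, 0.53 and 0.26. Other kept probes gave 0.28 to 0.97 for ENG and 0.24 to 2.46 for KDR. Of 12 pancreas acinar markers, 2 were called higher, CTRC and CPA1 at 1.82 and 1.22, with CELA2A too dim to be kept. CELA1, PRSS3 and AMY1A were not called at 1.00, 0.34 and -0.96. Their other kept probes gave -1.01 for CELA1, -0.25 for PRSS3 and -1.24 to 0.28 for AMY1A. PRSS2, CTRL and AMY2A, named after their values were seen, were not called at 0.87, 1.32 and -1.68. Their other kept probes lay higher, at 4.15 for PRSS2, 1.46 to 2.41 for CTRL and 0.77 to 1.68 for AMY2A. The brightest CTRL probe was not well above background in group 2. The list had 9 genes above 0 and a median of 0.80, or 0.60 with genes not well above background in group 2 at their lower bounds. Its summed level was 3.58 to 3.67 times in group 1 and 3.75 to 5.63 times in group 2. AMY1A, the brightest gene of the list, weighed most in that sum. Of 6 bile duct markers, 1 was called lower, SPP1 at -1.29 (adjusted p = 0.0387). SLC4A2, SOX9 and EPCAM were not called at 0.99, 0.68 and -0.25, nor was KRT7 at 2.75 (adjusted p = 0.0503), a gene named after its values were seen. The list had a median of 0.27, with a summed level of 12.7 to 13.2 times in group 1 and 15.3 to 18.2 times in group 2. None of 3 kidney tubule markers was called, with UMOD too dim to be kept and a summed level of 0.289 to 0.385 times in group 1 and 0.242 to 0.256 times in group 2. None of 8 smooth muscle markers was called (CALD1, MYLK and ACTG2 stood at 0.08, -0.14 and -1.11). Other kept probes gave -1.73 and -1.46 for CALD1 and -0.69 to 0.37 for MYLK. The summed level of the smooth muscle markers was 42.6 to 43.9 times in group 1 and 40.3 to 65.0 times in group 2. The list had a median of -0.02, with 4 genes above 0, and its groups separated upward for 2 genes and downward for 2. The upward ones, named after their values were seen, were MYH11 at 1.42 (adjusted p = 0.0659) and ACTA2 at 1.01 (adjusted p = 0.0672). Other kept probes of MYH11 gave 1.18 to 1.89. The part of any of these cells in the differences of the 9 genes was not tested. With no filter on dim probes, 16 of the calls named here and above were lost: ACE, SLC34A2, CDX4, GATA4, CLDN3, TSPAN1, GSN, SCIN, SLC7A2, RHAG, HBBR, SLC4A1, COL6A1, CTRC, CPA1 and SPP1. Of these, quantile normalization also ended the calls of GATA4, TSPAN1, SCIN, SLC4A1, HBBR, CTRC and CPA1, median scaling those of GATA4, TSPAN1, SCIN, GSN, SLC4A1 and HBBR, and normexp those of CDX4, GATA4, SCIN, CTRC and CPA1. The replicate block ended those of GATA4, TSPAN1, CLDN3, CPA1 and SPP1, and HBBR was also lost with the authors' value table and with outlier-flagged spots kept.

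The genes whose pattern over the 4 arrays was most like that of the 9 were found by Euclidean distance between log2 values centred on each gene's own mean. The mean centred profile of the 9 was 1.50 and 1.51 on the group 1 arrays and -1.75 and -1.25 on the group 2 arrays. Among 4665 candidate genes the nearest was CHRDL1, a secreted inhibitor of bone morphogenetic proteins, at a distance of 0.055. ATOH1 was next at 0.108, then NRTN, a growth factor for enteric neurons, at 0.316. GRK4, a receptor kinase, CPM, a membrane carboxypeptidase, and AREG, a ligand of the epidermal growth factor receptor, had distances of 0.420, 0.476 and 0.508. The group differences of these 6 genes lay between 2.69 and 3.39. Over 4 arrays in 2 groups, any gene with a difference of that size and close replicates has a small distance, so the order is a description only.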

How the data were processed

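Liver RNA was hybridised to 4 one-colour Agilent arrays, 2 per group, from 200 ng of Cy3-labelled total RNA pooled within groups, per the labels' protocols. The deposited scanner files hold spot intensity on a linear scale, made with Agilent Feature Extraction 11.5.1.1 and background-subtracted, per the file headers. The authors' deposited value table holds log2 values, which matched the scanner values (log2 minus the 75th percentile, centred per probe, r of at least 0.9997 on each array; column medians 0.084 and 0.016 in group 1, -0.094 and -0.022 in group 2) and served as an alternative.

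Here, the processed intensity was taken to log2 and the 75th percentile of the array's 43803 non-control spots was subtracted. Outlier-flagged spots (8 to 25 per array, none of the 9 genes) were set to missing, no probe was saturated, and spots of a probe were averaged. Kept probes (33869, of which 33868 could be tested) were fitted with limma 3.58.1 in R 4.3.3, with Benjamini-Hochberg adjustment over all of them. The fit was tested on simulated data, where it returned the simulated differences on average. There it called almost none of those with a log2 size of 2 in either direction, and missed many of the larger ones. Far fewer probes were changed in the simulation than were called in the data, which makes the adjustment stricter. Its shares called are therefore not the power of the fit on the data. A gene that was not called is still not shown to be unchanged. With 2 arrays against 2, an exact permutation test of a single value cannot go below a two-sided p of 0.333, and limma drew its power from 2.60 prior degrees of freedom added to 2 residual. The number of arrays limits the precision. Of 43603 probes, 11935 (27.4%) matched 5382 genes of NCBI RefSeq by unversioned accession. The matched assembly differs from that of the array design, so no coordinates are given. Genes of the lists were matched by their own symbol only.

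The 9 genes and the lists were chosen with earlier results of these data known. Named were all probes of the 9 genes and, from each list, the called genes with the largest differences (at most 4 higher and 3 lower) and at most 3 uncalled genes of the highest mean signal, plus the 6 genes nearest in profile. Further genes, named after their values were seen, are marked as such. Other kept probes of the list genes are given for some genes only, and several differed in size or sign from the brightest one. The scanner files used here have no mean-signal column, so the normexp alternative used median signal and background, a choice made after seeing the files. Deviations of same-numbered arrays correlated at 0.033 between groups. This value cannot exclude pairing by replicate number, since other differences between replicates, such as those in sex-linked genes, could hide a shared effect.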

Additional observations from a re-analysis of the deposited data

How the results depend on the processing

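Because the 9 genes were picked on these same arrays, the sign of their median difference is not evidence about them. The median difference of the 9 genes' brightest probes stayed positive under every alternative run. It was 3.07 in the main setting, 2.62 with quantile normalization, 1.54 with normexp and quantile normalization (chosen after seeing the data), and 2.79 to 3.36 when 1 array was left out. It was not computed for probes well above background on all 4 arrays, since only 9 of the 20 probes remained. SLC15A1 probe 1 was the only one of the 20 probes to change sign, to -0.39 without group 2 replicate 2. The counts of calls moved more. Main counts were 2506 probes higher and 1295 lower, 280 genes higher and 191 lower, and 18 gut list genes higher and 0 lower. Quantile normalization gave 1572 probes higher. Median scaling gave 2019 probes and 302 genes lower and 1 gut gene lower, and left 40.3% of the called genes on the higher side, against 59.4%, with a median over all genes of -0.08, against 0.14. With normexp, 2284 probes, 344 genes and 2 gut genes were lower. With no filter, 926 probes were higher and 315 lower, 102 genes higher and 54 lower, and 10 gut genes higher. With only probes well above background on all 4 arrays, 8 gut genes were higher and 1 lower, and another probe stood for SLC34A2, at -0.050. With the replicate number as a block, 1698 probes were higher and 725 lower, 189 genes higher and 111 lower, and 13 gut genes higher. Leaving out 1 array, with the lone array assumed to vary like the other group, gave 0 to 5847 probes higher and 0 to 3113 lower, 0 to 721 genes higher and 0 to 429 lower, and 0 to 28 gut genes higher and 0 to 3 lower. The zeros came from leaving out either group 1 array, where an unadjusted p under 0.05 was reached by 336 genes in the higher and 224 in the lower direction without replicate 1, and by 434 and 281 without replicate 2. The cause of these moves was not tested. Dim signal in group 2 limits the fold of CDH17, FUT9, SLC9A2, SLC15A1 probe 2, SLC5A1 probe 3 and MEP1A probe 2 to a lower bound. SLC5A1 probe 2, SLC7A9 probe 1 and MEP1A probe 1 were not well above background on 1 of the group 2 arrays. Their folds are thus not measured exactly either.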

Other observations

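For each of the 9 genes, the nearest measured genes on the chromosome were looked up in the RefSeq gene order, a check chosen after the data had been seen. Of these 18 neighbours, none was called higher in group 1 and 1 was called lower by limma, beside 5.75% and 3.92% of all genes. The called gene was PLA2G7, a phospholipase that breaks down platelet-activating factor, beside MEP1A, with a difference of -1.81 (adjusted p = 0.0350). The neighbours' median difference was 0.09, with a range from -1.81 to 1.60, the highest being AP3S2 beside ANPEP (adjusted p = 0.0520).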
